A study of Rattus norvegicus with 72 samples.

Results

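Phase II conjugation enzymes join reactive or fat-soluble molecules to glutathione, glucuronic acid or sulfate, and the products leave the cell more readily into bile, urine or milk. Glutathione S-transferases (GSTs) use glutathione, UDP-glucuronosyltransferases (UGTs) use UDP-glucuronic acid, and cytosolic sulfotransferases (SULTs) use the sulfate donor PAPS. The liver carries out most of this work, while secretory epithelium such as that of the mammary gland holds GSTs that act on lipid peroxides and other electrophiles. The genes described here are those whose array annotation gives 1 gene symbol that starts with Gsta, Gstm, Gstp, Gstt, Gstk, Gstz, Gsto, Mgst, Ugt1a, Ugt2a, Ugt2b, Sult1, Sult2 or Sult4. They number 43 of 14217 genes measured by a probe set of 1 symbol. The 43 comprise 4 alpha GSTs, 7 mu GSTs, 9 GSTs of the pi, theta, kappa, zeta and omega classes, 3 microsomal GSTs, 8 UGT2 genes, 7 SULT1 genes and 5 SULT2 and SULT4 genes. No Ugt1a gene is among them, because the 2 probe sets with Ugt1a symbols carry several symbols. Gstt2, Sult2b1 and Ugt2b have 2 probe sets each, and the brighter one over 60 arrays stands for the gene. GSTs, UGTs and SULTs each include near-identical copies, and whether short probes separate them was not tested.

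RNA was measured on 72 Affymetrix rat arrays as log2 signal, 1 unit being a doubling. Mammary gland, liver and adipose tissue were taken from lactating rats in hypergravity, lactating rats at standard gravity, pregnant rats in hypergravity and pregnant rats at standard gravity, with 5 arrays per tissue and group. A second set of 12 arrays came from mammary gland of pregnant rats in microgravity, of flight controls and of vivarium controls, with 4 arrays each, and is compared only within itself. Rat strain, age, the g level and the length of exposure are not given in the sources used here, and no genetic change is named for any group. In the 60-array set a rat code recurs in the titles of all 3 tissues, so that 20 rats gave 3 arrays each. The labels do not say whether the 4 letters of a microgravity group are separate animals, so p-values there measure only the spread between arrays. Titles give each array a tissue letter, a rat code and S for standard gravity or H for hypergravity, as in M216S, while FLT, FDS and VIV with a letter name microgravity, flight control and vivarium control arrays.

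Tissue labels were set against marker genes. The mean log2 level of 11 hepatocyte markers ran from 12.25 to 12.59 on liver arrays, that of adipocyte markers from 9.51 to 10.65 on 19 adipose arrays and that of milk protein markers from 12.53 to 13.23 on 19 mammary arrays. The array labelled mammary M210H had a milk protein mean of 2.97 and an adipocyte mean of 10.28, and the array labelled adipose A210H had 13.06 and 7.54. These arrays of 1 lactating hypergravity rat thus go against their labels, are left out of the results below, and leave 4 arrays in the lactating hypergravity groups of mammary gland and adipose tissue. Hepatocyte markers were also high on M56H (9.75), M52S (6.32) and M57S (5.26), all of pregnant mammary gland, against at most 4.18 on the other 16 mammary arrays. Skeletal muscle markers were high on the mammary arrays M50H (8.79) and M212H (8.37) and on the adipose arrays A48S (12.61) and A217H (11.20). Milk protein means were raised on the livers L55H (5.88), L214S (5.72), L212H (4.77) and L217H (4.36), against at most 4.17 on other livers. The adipose array A55H had 5.85, against at most 3.54 on other adipose arrays used. In the microgravity set FLTB had a hepatocyte mean of 4.93, against at most 3.58 on its other arrays. The part of this in the results was not tested.

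In liver, 36 of the 43 genes were higher and 4 lower than in mammary gland, over the mean of the 4 stage and gravity groups. These are 93% of the members, against 73.1% of all 14217 genes called (limma, adjusted p under 0.05 over 31042 probe sets). Members higher in liver were 83.7% and members lower 9.3%, against 31.9% and 41.2% of all genes. The median difference was 2.63 for the members and -0.05 for all genes. Against adipose tissue 36 members were higher in liver and 3 lower (90.7%, against 67% of all genes, 33.3% higher and 33.7% lower). Higher in liver than in both other tissues were 35 members. In liver 29 members lay above their array's median on all 20 arrays, against 13 on all 19 mammary arrays and 17 on all 19 adipose arrays. The shares of all genes were not computed for these counts or for the 35 members. Gsta3l1, Gstm3, Gstm6l, Ugt2b7, Sult1e1 (the estrogen sulfotransferase) and Sult2a1 lay under the median on all 58 arrays. Of these, Gstm3, Ugt2b7 and Sult2a1 are counted among the 36 higher in liver than in mammary gland. Their liver means were 3.10, 2.95 and 2.70, against 2.79, 2.80 and 2.53 in mammary gland.

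**Figure D1:**
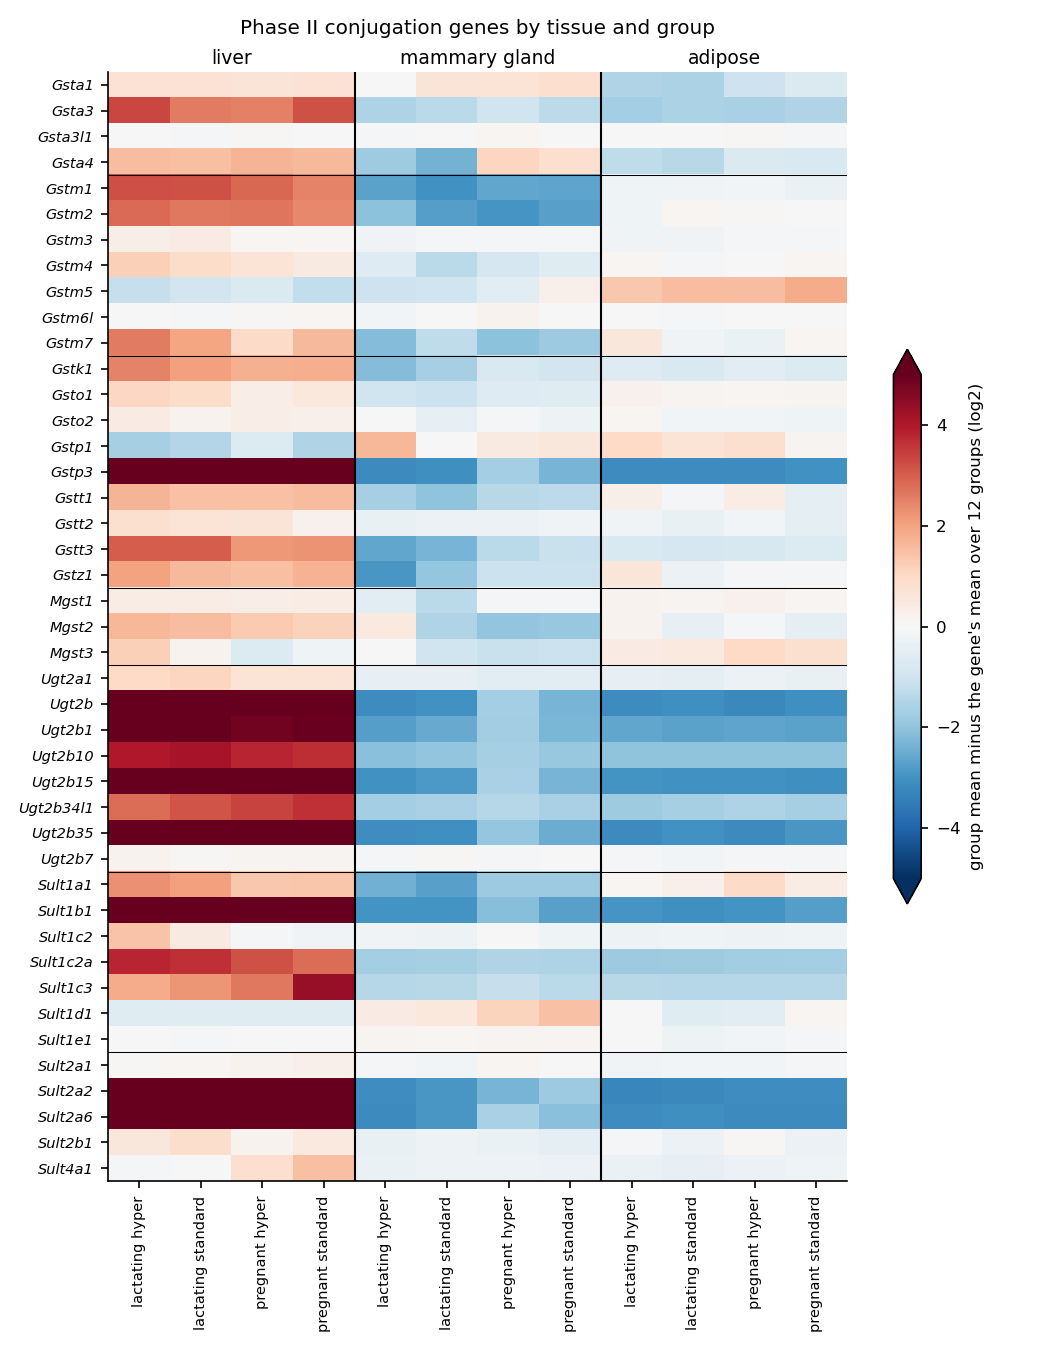
Group mean log2 signal minus the gene's mean over the 12 standard gravity and hypergravity groups, without M210H and A210H. Rows are the 43 phase II genes by family, and columns are these 12 groups by tissue. Most UGT2 rows and the rows of Gstp3, Sult1b1, Sult2a2 and Sult2a6 are above their own mean in the 4 liver columns and below it elsewhere. Each row is centred on its own mean, so levels cannot be compared between rows.

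The 5 widest differences between liver and mammary gland were those of Ugt2b35 (8.37), Sult1b1 (8.35), Sult2a2 (8.26), Gstp3 (8.25) and Ugt2b (8.24), all log2 values. Sult2a2 and Sult2a6, hydroxysteroid sulfotransferases, are the members for which upstream sequence is shown first, because both carry a half-site of the hepatocyte factor HNF1. The windows are the 250 bases before the RefSeq start on GRCr8 (chr1:85104533-85104782, minus strand, and chr1:84097809-84098058, minus strand), in the direction of the gene, 5′ to 3′, and capitals mark GTTAAT on either strand.
Sult2a2: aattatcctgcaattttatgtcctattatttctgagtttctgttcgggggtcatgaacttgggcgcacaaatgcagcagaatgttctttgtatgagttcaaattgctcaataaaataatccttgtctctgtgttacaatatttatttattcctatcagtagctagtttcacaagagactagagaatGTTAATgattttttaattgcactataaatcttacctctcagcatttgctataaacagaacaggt
Sult2a6: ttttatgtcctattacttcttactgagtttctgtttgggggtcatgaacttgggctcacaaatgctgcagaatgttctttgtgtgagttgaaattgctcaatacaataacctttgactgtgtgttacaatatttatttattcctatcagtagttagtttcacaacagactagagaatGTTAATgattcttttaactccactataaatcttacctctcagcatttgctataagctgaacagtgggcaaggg
The windows share 221 of 250 bases in the same order (88.4%), with a longest common run of 34. GTTAAT was found on either strand in 6.45% of 33469 RefSeq windows of this length and in 2 of 36 members that had a window, these 2. A match is a run of letters and shows no binding.

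Sult2a6 averaged 11.95 ± 0.17 in liver (SD, n = 20), 3.92 ± 1.90 in mammary gland and 3.18 ± 0.11 in adipose tissue (SD, n = 19 each). Sult2a2 averaged 11.70 ± 1.57 in liver, against 3.48 ± 1.21 and 2.81 ± 0.23 in those tissues. The liver spread of Sult2a2 came from L206H at 6.58 and L202S at 7.75, both of lactating rats, while the other 18 livers lay between 11.80 and 12.48. Sult2a6 was within 11.69 to 12.25 on all 20 liver arrays, L206H and L202S included. Sult2a2 differed by 8.26 between liver and mammary gland (SE 0.37, adjusted p = 3.16e-26) and by 8.90 between liver and adipose tissue. Sult1b1, which sulfates thyroid hormones and phenols, was 8.35 higher in liver than in mammary gland (SE 0.19, adjusted p = 3.94e-39).

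Ugt2b35, Ugt2b and Ugt2b15 belong to a UGT family that glucuronidates steroids, bile acids and drugs, and their genes are neighbours on chromosome 14. The 100 bases before each RefSeq start on GRCr8 are shown because the 3 share a run of 31 bases, marked in capitals (chr14:21208341-21208440, plus strand, chr14:20985349-20985448, plus strand, and chr14:21122766-21122865, plus strand).
Ugt2b35: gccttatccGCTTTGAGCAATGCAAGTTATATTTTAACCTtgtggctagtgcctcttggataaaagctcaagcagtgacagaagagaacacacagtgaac
Ugt2b: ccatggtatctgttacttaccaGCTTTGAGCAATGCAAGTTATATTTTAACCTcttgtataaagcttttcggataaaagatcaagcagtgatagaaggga
Ugt2b15: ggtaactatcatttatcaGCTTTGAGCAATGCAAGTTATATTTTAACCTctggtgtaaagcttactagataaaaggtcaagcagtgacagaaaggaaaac
The run was picked after reading these windows, and it stands in 5 of 33469 RefSeq windows, those of the 3 genes, Ugt2b37 and LOC134478834. On liver arrays Ugt2b35 averaged 11.57 ± 0.16, against 3.23 ± 1.38 on mammary and 2.79 ± 0.17 on adipose arrays. It stood 8.37 higher in liver than in mammary gland (adjusted p = 1.71e-33) and Ugt2b 8.24 higher (adjusted p = 3.54e-32). Ugt2b15 averaged 10.88 ± 0.28 in liver, against 2.96 ± 1.38 in mammary gland. Among the other UGT2 genes the liver means were 10.86 for Ugt2b1, 8.40 for Ugt2b10, 7.45 for Ugt2b34l1, 4.21 for Ugt2a1, whose product is known from olfactory tissue, and 2.95 for Ugt2b7. Outside liver, every UGT2 gene had a mean of at most 3.60.

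Of the GSTs, Gsta1, an alpha GST that conjugates electrophiles and reduces lipid peroxides, averaged 11.59 ± 0.13 in liver, 11.45 ± 0.41 in mammary gland and 9.69 ± 0.53 in adipose tissue. Gstp3, a second pi-class gene, averaged 11.73 ± 0.19 in liver and stood 8.25 higher there than in mammary gland (adjusted p = 3.41e-32). Gstp1, the pi-class GST known in the rat as a marker of preneoplastic liver foci, went the other way. It averaged 7.05 ± 0.67 in liver, against 8.99 ± 0.75 in mammary gland and 9.01 ± 0.52 in adipose tissue (log2 fold change -2.0, SE 0.16, adjusted p = 1.46e-15 against mammary gland, and -1.98 against adipose tissue, adjusted p = 2.08e-15). Gstp1 on L60H, at 9.27, lay above all other livers. The mu GSTs Gstm1, Gstm2 and Gstm7 had liver means of 10.24, 10.65 and 10.08. Gsto1, an omega GST that reduces dehydroascorbate, averaged 10.07 ± 0.45 in liver, 8.55 ± 0.36 in mammary gland and 9.52 ± 0.46 in adipose tissue. The theta GST Gstt1 averaged 9.30 ± 0.37, 6.17 ± 0.58 and 7.77 ± 0.68 in the same tissues, and Gstt2 9.99 ± 0.32, 9.13 ± 0.34 and 9.12 ± 0.26. Both were highest in liver. Gsta3 averaged 7.13 ± 0.77 in liver, against 2.93 ± 0.29 in mammary gland, and Gsto2 3.82 ± 0.31, against 3.33 ± 0.25. Of the SULTs, Sult1c2a (7.55 ± 0.69, against 2.60 ± 0.18 in mammary gland) and Sult1c3 (6.64 ± 1.81, against 2.55 ± 0.25) were also largely seen in liver, while Sult2b1, a cholesterol sulfotransferase, averaged 3.99 ± 0.50 there, against 3.10 ± 0.22.

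The other members lower in liver than in mammary gland were Sult1d1, a catecholamine sulfotransferase in the mouse (log2 fold change -1.48, SE 0.23, adjusted p = 1.79e-07), Gstm5 (-0.41, adjusted p = 0.0159) and Sult1e1 (-0.15, adjusted p = 0.0432). With each array centred on its own median, which takes away a shift of -0.13 between liver and mammary medians (liver minus adipose tissue, -0.14), Gstm5 lost its call (-0.29, adjusted p = 0.0843) and so did Sult1e1 (-0.03, adjusted p = 0.724). Sult1e1 also lost its call without any 1 of the rats of L206H, L210H, L214S, L216S, L217H, L219S, L44S, L48S, L50H, L52S, L57S or L59H (adjusted p up to 0.114). Against adipose tissue Gstm5 was lower in liver (log2 difference -2.57, adjusted p = 6.08e-21), as was Mgst3 (-0.57, adjusted p = 0.023), and the Mgst3 call was lost with centred arrays (-0.42, adjusted p = 0.0796) and without the rat of L202S (log2 fold change -0.50, adjusted p = 0.0505).

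Between mammary gland and adipose tissue 4 members were higher and 14 lower in mammary gland (41.9%, against 60.9% of all genes, 34.3% higher and 26.6% lower). Gsta1 was 1.74 higher (adjusted p = 2.01e-21), Sult1d1 1.16 higher (adjusted p = 2.91e-05), Gsta4 0.48 (adjusted p = 0.00212) and Sult1e1 0.27 (adjusted p = 0.000568). Without the arrays that carry muscle or hepatocyte markers 3 members were higher and 14 lower, and the Gsta4 call was lost (0.28, adjusted p = 0.063). Sult1a1, the phenol sulfotransferase, was lower in mammary gland (log2 difference -2.61, adjusted p = 8.24e-22). Several mu GSTs were lower too, with log2 differences of -2.61 for Gstm2, -2.53 for Gstm1, -2.16 for Gstm5 and -1.84 for Gstm7 (SE 0.15 to 0.23).

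On the 3 mammary arrays that carried hepatocyte markers, 8 of the 36 members higher in liver than in mammary gland lay above all 16 other mammary arrays, namely Gstp3, Gstt3, Ugt2b, Ugt2b15, Ugt2b35, Sult1b1, Sult2a2 and Sult2a6. Another 8 did so on 1 or 2 of the 3 arrays, and 20 on none, Sult1c3 among them. The same count was not made over all genes higher in liver, so whether the members differ from those is not known. Gstp3 had 9.03 on M56H, 5.64 on M52S and 3.81 on M57S, against 2.62 to 3.67 on the other 16 mammary arrays. Sult2a6 had 10.74, 6.90 and 4.93 on these arrays, against 2.87 to 4.32. For both genes M56H was the highest mammary array, as it was for the hepatocyte marker mean. Ugt2b had 8.78, 4.91 and 3.74, against 2.36 to 2.96. The part of liver RNA in these levels was not tested, and the mammary means of Gstp3, SULT2A and UGT2 genes given above include these arrays.

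**Figure D2:**
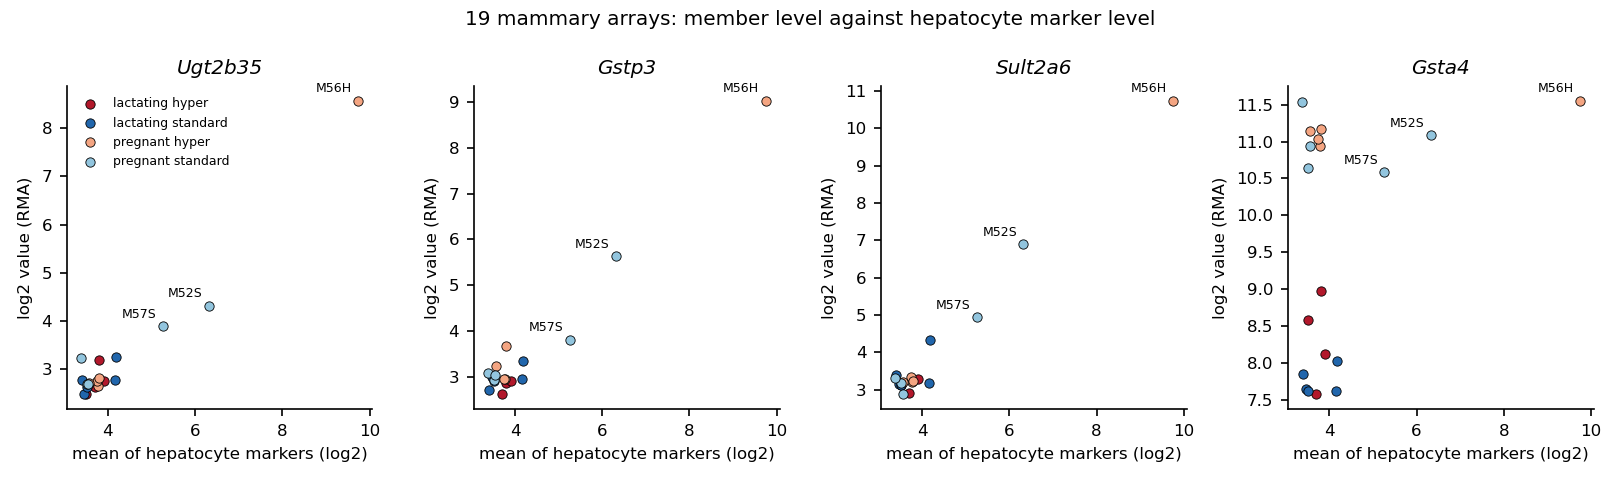
Log2 signal of Ugt2b35, Gstp3, Sult2a6 and Gsta4 (vertical axes) against the mean log2 level of 11 hepatocyte markers (horizontal axes), 1 point per mammary array of the standard gravity and hypergravity groups without M210H. M56H, M52S and M57S stand to the right of the other 16 arrays, with Sult2a6 at 10.74 on M56H, while Gsta4 is as high on pregnant arrays without these markers.

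Lactation against pregnancy was compared first in mammary gland at standard gravity. There 8 of 43 members were lower in lactation and 0 higher (18.6%, against 40% of all genes called, 14.4% higher and 25.7% lower). The median difference was -0.17 for the members and -0.10 for all genes, and the share of members called was below that of all genes. In whole tissue, fewer cells of a type and less RNA per cell cannot be told apart. The 8 were Gsta4, Mgst1, Gstm5, Gstm4, Gstt3, Gstz1, Gstk1 and Sult1a1, all but the last being GSTs.

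Gsta4 conjugates hydroxynonenal, a toxic end product of lipid peroxidation (gene 300850, chromosome 8, 87947247 to 87964490 on GRCr8). In mammary gland of lactating rats at standard gravity it had 7.61, 7.62, 7.65, 7.85 and 8.02, against 10.58, 10.65, 10.93, 11.09 and 11.53 in pregnant rats. Every lactating array lay below every pregnant one. The mean was 7.75 ± 0.18 in lactation and 10.96 ± 0.38 in pregnancy (SD, n = 5 each), a 9.22-fold lower level in lactation (log2 fold change -3.21, SE 0.22, adjusted p = 3.62e-08). In hypergravity Gsta4 had 7.57, 8.12, 8.58 and 8.98 in lactating rats, against 10.94, 11.03, 11.14, 11.17 and 11.55 in pregnant rats, and was again lower without overlap (log2 fold change -2.85, SE 0.24, adjusted p = 5.55e-07). Pregnant arrays without hepatocyte markers were as high as those with them, the highest being M44S at 11.53 and M56H at 11.55.

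Mgst1, a membrane-bound GST that reduces lipid hydroperoxides (gene 171341, chromosome 4, 172760930 to 172776157), had 10.37, 10.43, 10.73, 10.85 and 11.05 in lactating rats at standard gravity, against 11.81, 11.95, 12.02, 12.05 and 12.07 in pregnant rats. The groups did not overlap (log2 fold change -1.29, SE 0.12, adjusted p = 9.97e-07). In hypergravity the difference was -0.49 (SE 0.13, adjusted p = 0.00888). With M210H kept in its labelled group this call was lost (-0.34, adjusted p = 0.124). Gstm5, a mu GST, had 4.12, 4.56, 4.72, 5.03 and 5.05 in lactating rats, against 5.46, 5.92, 6.04, 6.10 and 6.14 in pregnant rats at standard gravity. Its groups did not overlap either (log2 fold change -1.23, SE 0.29, adjusted p = 0.00282), and the call was lost with M210H kept in the mammary fit (-1.23, adjusted p = 0.0769). M210H is not in this standard gravity comparison, and the Gstm5 difference did not change.

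Gstk1, a kappa GST of mitochondria and peroxisomes, had 6.78, 6.88, 7.03, 7.21 and 7.45 in lactating rats, against 7.48, 7.69, 7.89, 7.92 and 7.98 in pregnant rats at standard gravity, with no overlap (log2 fold change -0.72, SE 0.18, adjusted p = 0.00434). In hypergravity its difference was -1.40 (SE 0.19, adjusted p = 7.07e-05). Gstm4, a mu GST, ranged over 4.33 to 5.33 in lactating rats, against 5.15 to 5.73 in pregnant rats at standard gravity (log2 fold change -0.74, SE 0.17, adjusted p = 0.0021). Gstz1, the maleylacetoacetate isomerase of tyrosine breakdown, differed by -0.87 at standard gravity (SE 0.30, adjusted p = 0.0334) and by -1.82 in hypergravity (SE 0.32, adjusted p = 0.000535). In hypergravity Gstz1 had 4.59, 5.40, 5.75 and 5.85 in lactating rats, against 6.34, 6.58, 7.48, 7.79 and 7.90 in pregnant rats. No lactating hypergravity array of Gstz1 reached the pregnant ones. With M210H kept in the fit, the Gstz1 call was lost at standard gravity (-0.87, adjusted p = 0.255) and in hypergravity (-1.13, adjusted p = 0.131). M210H is not in the standard gravity comparison, and the Gstz1 difference there did not change.

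Calls of Gstt3, Gstz1 and Sult1a1 were near the threshold and were lost when single arrays were left out. Gstt3, a theta GST, differed by -1.19 at standard gravity (SE 0.39, adjusted p = 0.0242), and the call was lost without any 1 of M216S, M52S, M57S or M214S (log2 fold change -1.05 to -1.13, adjusted p = 0.0531 to 0.0664). Sult1a1 differed by -0.92 without overlap (SE 0.33, adjusted p = 0.0373), and its call was lost without any 1 of M216S, M52S, M42S, M57S, M214S or M48S (log2 fold change -0.71 to -0.97, adjusted p = 0.0504 to 0.114). It was also lost with M210H kept in the fit (-0.92, adjusted p = 0.152). M210H is not in this comparison, and the Sult1a1 difference did not change. For Gstz1 the call at standard gravity was lost without any 1 of M216S, M52S, M201S, M57S, M214S or M48S (log2 fold change -0.77 to -0.89, adjusted p = 0.0507 to 0.0841). Leaving out M56H, M52S and M57S, which carry hepatocyte markers, ended the calls of Gstt3 (-0.84, adjusted p = 0.177), Gstz1 (-0.64, adjusted p = 0.144) and Sult1a1 (-0.86, adjusted p = 0.128), and 5 members remained called. Gsta4, Mgst1, Gstm5, Gstm4 and Gstk1 stayed called with any 1 array left out.

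In hypergravity 7 members were lower and 2 higher in lactating than in pregnant mammary gland (20.9%, against 34.7% of all genes, 13.5% higher and 21.2% lower). Gsta4, Mgst1, Gstt3, Gstz1 and Gstk1 were lower at both gravity levels. Gsta1 was lower in lactation (log2 fold change -0.70, SE 0.18, adjusted p = 0.00786), as was Gsta3 (log2 fold change -0.53, adjusted p = 0.0246), a gene under the array median on every mammary array. Gstt3 differed by -1.24 (adjusted p = 0.0306), and its call was lost without any 1 of M59H, M203H, M56H, M212H, M60H or M206H (log2 fold change -1.02 to -1.22, adjusted p = 0.0542 to 0.107). Gsta3 lost its call without any 1 of M59H, M50H, M212H, M60H or M206H (log2 fold change -0.43 to -0.51, adjusted p = 0.0547 to 0.0709). With only the groups compared in the fit, Gsta1 (-0.70, adjusted p = 0.0602), Gsta3 (-0.53, adjusted p = 0.0789) and Gstt3 (-1.24, adjusted p = 0.0876) were not called. Mgst2 and Gstp1 were the members higher in lactation.

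**Figure D3:**
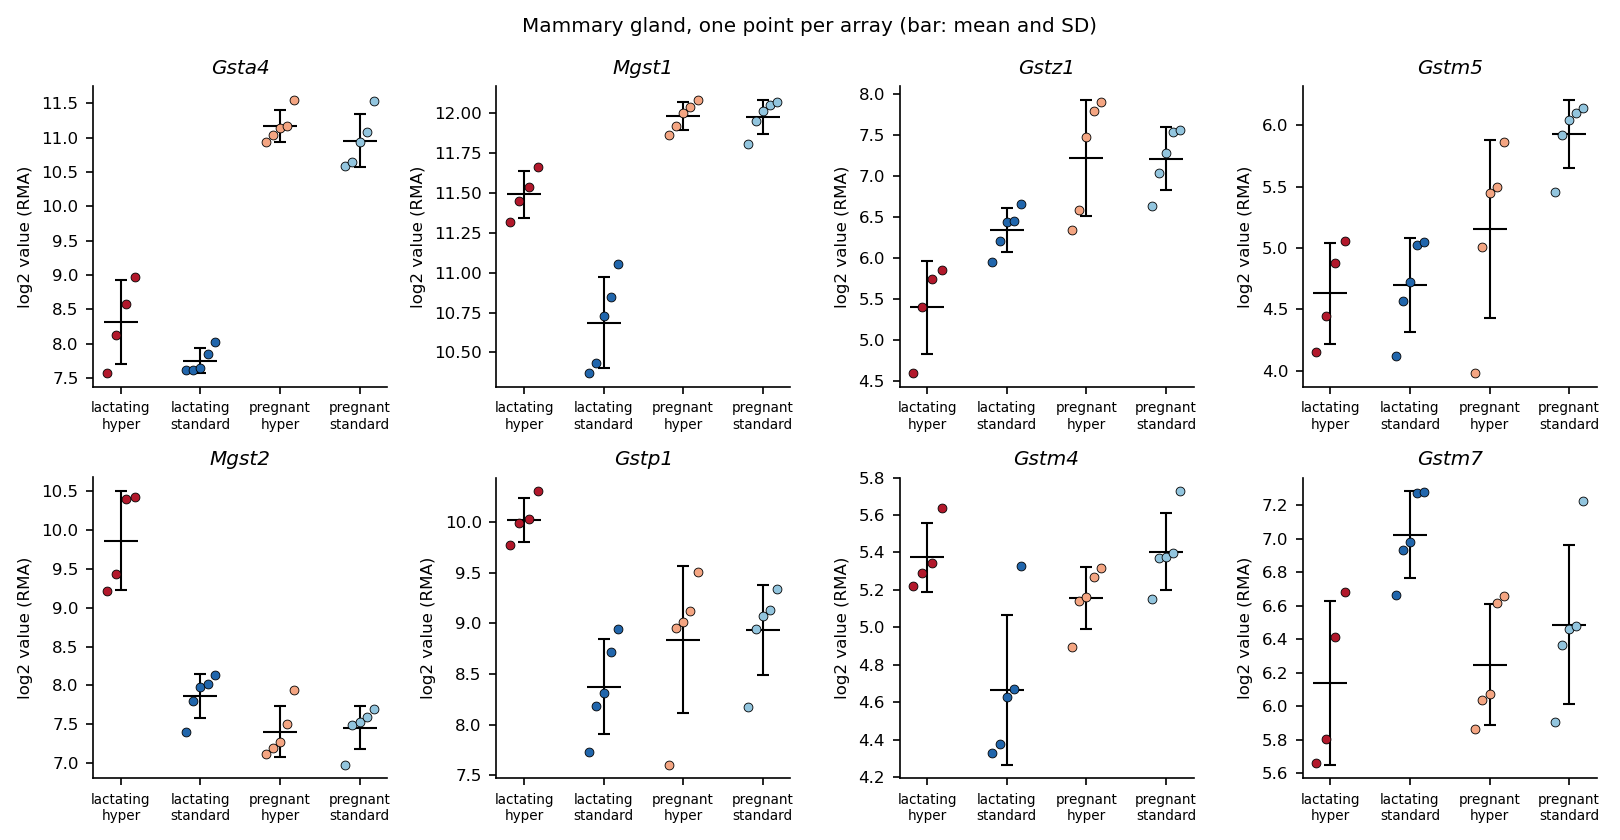
Log2 signal of 8 phase II genes on each mammary array (points, vertical axes) in lactating hypergravity, lactating standard gravity, pregnant hypergravity and pregnant standard gravity groups (horizontal axes), with mean and SD bars, without M210H. Gsta4 reaches at most 8.98 on the lactating arrays and Mgst2 is highest in lactating hypergravity.

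Hypergravity against standard gravity was compared within each stage. In lactating mammary gland 4 members were higher and 2 lower in hypergravity (14%, against 12.4% of all genes, 6.22% higher and 6.23% lower). Mgst2, a microsomal GST that can make leukotriene C4, had 9.21, 9.43, 10.40 and 10.42 in lactating hypergravity rats, against 7.40, 7.80, 7.97, 8.01 and 8.13 at standard gravity. The groups did not overlap, and the level was 4-fold higher in hypergravity (log2 fold change 2.0, SE 0.25, adjusted p = 4.08e-05). In pregnant rats Mgst2 had 7.11, 7.20, 7.27, 7.51 and 7.94 in hypergravity, against 6.98, 7.5, 7.53, 7.59 and 7.69 at standard gravity, and the groups overlapped. Its stage difference in hypergravity was 2.46 (SE 0.25, adjusted p = 5.74e-06), and the test of the difference between gravity levels gave 2.05 (SE 0.34, adjusted p = 0.00187).

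Gstp1 (gene 24426, chromosome 1, 210767237 to 210770242) had 9.77, 9.99, 10.03 and 10.30 in lactating hypergravity rats, against 7.73, 8.18, 8.31, 8.71 and 8.94 at standard gravity. It too was higher in hypergravity without overlap, 3.13-fold (log2 fold change 1.65, SE 0.32, adjusted p = 0.00238), and higher in lactation than in pregnancy within hypergravity (log2 fold change 1.18, SE 0.32, adjusted p = 0.01). Mgst1 had 11.32, 11.45, 11.54 and 11.67 in lactating hypergravity rats, against 10.37, 10.43, 10.73, 10.85 and 11.05 at standard gravity, again with no overlap (log2 fold change 0.81, SE 0.13, adjusted p = 0.000489). Mgst2, Gstp1 and Mgst1 stayed called with any 1 array left out. Gstm4 was higher in hypergravity (log2 fold change 0.71, SE 0.18, adjusted p = 0.0138), a call lost without M217H (log2 fold change 0.62, adjusted p = 0.0606).

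Gstm7 and Gsta1 were lower in lactating hypergravity mammary gland. Gstm7, a mu GST, differed by -0.89 (SE 0.26, adjusted p = 0.0351), a call lost without any 1 of M216S, M201S, M203H, M219S, M206H or M202S (log2 fold change -0.73 to -0.91, adjusted p = 0.0579 to 0.138) and with M210H kept (-0.43, adjusted p = 0.644). Gsta1 ranged over 10.20 to 11.27 in hypergravity, against 11.19 to 11.77 at standard gravity (log2 fold change -0.69, SE 0.18, adjusted p = 0.0226), and its call was lost without any 1 of M203H, M219S, M214S or M206H (log2 fold change -0.47 to -0.69, adjusted p = 0.0527 to 0.0898) and with only the groups compared in the fit (-0.69, adjusted p = 0.0587). In pregnant mammary gland 0 members were called with limma, against 0.00703% of all genes, and 1 had an unadjusted p under 0.05, namely Gstm5 at -0.77 (adjusted p = 0.818). Gsta3 followed at 0.31 (adjusted p = 0.945).

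The stage difference itself differed between gravity levels for 4 members, all in the direction of a higher lactation level in hypergravity (9.3%, against 5.65% of all genes, 3.14% higher and 2.51% lower). Beside Mgst2 these were Gstp1 (log2 fold change 1.74, SE 0.44, adjusted p = 0.0306), Gstm4 (log2 fold change 0.96, SE 0.24, adjusted p = 0.0297) and Mgst1 (log2 fold change 0.80, SE 0.18, adjusted p = 0.0147). The Gstp1 call was lost without any 1 of M52S, M44S, M201S, M203H, M219S, M206H, M202S or M48S (log2 fold change 1.58 to 1.74, adjusted p = 0.0512 to 0.0723). That of Gstm4 was lost without any 1 of M44S, M201S, M57S, M219S, M217H, M214S or M206H (log2 fold change 0.87 to 0.97, adjusted p = 0.0502 to 0.0765). Without M56H, M52S and M57S, Gstm4 (0.86, adjusted p = 0.104) and Mgst1 (0.77, adjusted p = 0.0589) were no longer called. Without these and the arrays with muscle markers, Gstp1 was not called either (2.13, adjusted p = 0.0544). Mgst2 stayed called in both cases.

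Markers of other cells moved with these groups. Luminal epithelial markers had array means of 9.46 to 10.22 in lactating hypergravity mammary gland and 8.37 to 8.53 in lactating standard gravity, with 5 of 7 markers called higher and none lower in hypergravity. Pregnant arrays had 8.99 to 9.92 in hypergravity and 8.96 to 10.07 at standard gravity, and 5 of 7 luminal markers were lower in lactation at standard gravity. Macrophage marker means were 8.27 to 8.96 in lactating hypergravity, 7.38 to 7.87 in lactating standard gravity, 8.54 to 9.23 in pregnant hypergravity and 8.83 to 9.48 in pregnant standard gravity arrays, and 5 of 6 macrophage markers were lower in lactation at standard gravity. Between gravity levels in lactation, 1 of 6 macrophage markers was called higher and 0 lower in hypergravity. By stage in hypergravity 1 macrophage marker was higher and 3 lower, and 1 luminal marker was higher and 1 lower. The log2 values of markers have no true zero, so no marker can be given as at 0. The part of these cells in the member differences was not tested.

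Upstream sequence of Gstp1, Gsta4 and Gstm4 is shown because these moved in the mammary comparisons and their windows hold cores of the antioxidant or the xenobiotic response element. The windows are the 250 bases before the RefSeq start on GRCr8 (chr1:210769706-210769955, minus strand, chr8:87947015-87947264, plus strand, and chr2:198373384-198373633, minus strand), 5′ to 3′ along the gene. For Gstp1 and Gsta4 that start lies inside the gene span given above. Capitals mark TGACNNNGC, the antioxidant core, and GCGTG, the xenobiotic core, each on either strand.
Gstp1: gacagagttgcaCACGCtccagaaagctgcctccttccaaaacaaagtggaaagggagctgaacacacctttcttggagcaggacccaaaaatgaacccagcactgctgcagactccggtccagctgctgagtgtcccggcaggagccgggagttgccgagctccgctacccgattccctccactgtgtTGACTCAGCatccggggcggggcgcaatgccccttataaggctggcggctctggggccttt
Gsta4: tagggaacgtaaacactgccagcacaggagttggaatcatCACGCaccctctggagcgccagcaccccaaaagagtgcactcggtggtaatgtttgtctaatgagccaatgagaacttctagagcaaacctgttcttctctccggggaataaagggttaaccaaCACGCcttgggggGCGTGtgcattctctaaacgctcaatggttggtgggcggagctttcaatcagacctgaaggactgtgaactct
Gstm4: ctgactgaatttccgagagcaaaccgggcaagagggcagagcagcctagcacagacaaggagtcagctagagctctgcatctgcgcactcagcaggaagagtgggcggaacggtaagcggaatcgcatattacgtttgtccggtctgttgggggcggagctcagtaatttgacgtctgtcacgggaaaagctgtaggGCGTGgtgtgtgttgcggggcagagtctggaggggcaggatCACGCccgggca
In Gstp1 the antioxidant core reads TGACTCAGC, from 61 to 53 bases before the start. TGACNNNGC stands in 10.1% of the 33469 RefSeq windows and in 4 of 36 members with a window (Gstm5, Gstm7, Gstp1 and Gstz1). GCGTG stands in 25.9% of windows and in 9 of 36 members.

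Genes that supply glutathione and genes known as targets of NRF2, the factor that binds the antioxidant element, give the setting of the GST changes. In lactating against pregnant mammary gland at standard gravity the glutathione supply list had 5 higher and 1 lower of 13 measured genes, with a median difference of 0.33. Of all genes 14.4% were higher and 25.7% lower there. Whether the lists differ from all genes was not tested. Ggt1, the cell surface enzyme that breaks glutathione down, was higher in lactation (2.53, adjusted p = 1.02e-05), as were the transporters Slc1a4 (1.60, adjusted p = 8.91e-05) and Slc7a11, the cystine carrier (1.52, adjusted p = 0.00202), while Cbs, of cysteine synthesis, was lower (-1.01, adjusted p = 0.00138). The NRF2 target list had 3 higher and 1 lower of 12, with a median of -0.05, and Srxn1, a reductase of peroxiredoxins, was higher (2.43, adjusted p = 0.000352). In hypergravity the supply list had 1 higher and 2 lower of 13 by stage (median -0.13), with Slc1a4 higher (2.29, adjusted p = 1.41e-05) and Cbs (-1.39, adjusted p = 0.000282) and Gclc (-0.98, adjusted p = 0.00503) lower. The NRF2 target list had 1 higher and 4 lower of 12 (median -0.15), with Srxn1 higher (2.70, adjusted p = 0.000427) and Me1, Osgin1, Nqo1 and Gclc lower. Of all genes 13.5% were higher and 21.2% lower by stage in hypergravity. Slc7a11 and Gclc stand on both lists. In lactating hypergravity against standard gravity the supply list had 0 higher and 2 lower of 13 (median -0.08) and the NRF2 target list 0 higher and 3 lower of 12 (median -0.03). Of all genes 6.22% were higher and 6.23% lower there. Ggt1 was lower in hypergravity (-3.44, adjusted p = 2.66e-06), as were Gclc, the rate-limiting enzyme of glutathione synthesis (-1.21, adjusted p = 0.00253), and Nfe2l2, which encodes NRF2 (-1.20, adjusted p = 0.000813). A list of 13 regulators, Nfe2l2 included, had 1 higher and 2 lower by stage at standard gravity, and 0 and 1 in hypergravity. By stage Nfe2l2 was higher in lactation at standard gravity (0.77, adjusted p = 0.00467). Keap1, also on that list, was lower in lactation at standard gravity (-0.54, adjusted p = 0.0293) and in hypergravity (-0.83, adjusted p = 0.00392). The Ggt1 stage difference differed between gravity levels (-3.28, adjusted p = 0.000356).

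Few members differed by stage in liver, and Sult1a1 did at both gravity levels. At standard gravity Sult1a1 was higher and Sult4a1 lower in lactating rats (4.65% of members, against 0.732% of all genes, 0.324% higher and 0.408% lower). In hypergravity 6 members were higher and 1 lower (16.3%, against 4.38% of all genes, 1.83% higher and 2.55% lower), with a median of 0.19, against 0.02 for all genes. Sult1a1 had 11.54, 11.71, 11.72, 11.75 and 11.85 in lactating hypergravity livers, against 10.62, 10.69, 10.75, 10.76 and 11.04 in pregnant hypergravity livers, without overlap (log2 fold change 0.94, SE 0.12, adjusted p = 0.000157). At standard gravity it had 11.39, 11.40, 11.40, 11.55 and 11.63 in lactating livers, against 10.67, 10.69, 10.70, 10.75 and 11.29 in pregnant livers, again without overlap (log2 fold change 0.65, SE 0.12, adjusted p = 0.0138).

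Gstm7 had 10.53, 10.87, 10.92, 11.00 and 11.14 in lactating hypergravity livers, against 8.58, 9.27, 9.29, 9.32 and 9.81 in pregnant hypergravity livers (log2 fold change 1.64, SE 0.23, adjusted p = 0.000372). Mgst3, a microsomal GST, had 7.99, 8.94, 9.63, 9.84 and 10.37 in lactating livers, against 7.08, 7.17, 7.55, 7.70 and 8.01 in pregnant livers of that gravity level (log2 fold change 1.85, SE 0.34, adjusted p = 0.00359). The Gstm7 groups did not overlap, and those of Mgst3 overlapped by 1 array, the lowest of the lactating group. The calls of Sult1a1 at both gravity levels, Gstm7 and Mgst3 held with any 1 liver array left out. Those of Gstk1 (0.68, adjusted p = 0.0278), Gstz1 (0.49, adjusted p = 0.0276) and Sult1c2 (1.5, adjusted p = 0.0362) did not. Gstk1 was lost without any 1 of L59H, L55H, L203H, L56H, L217H or L206H (log2 fold change 0.60 to 0.69, adjusted p = 0.0514 to 0.0736). Gstz1 was lost without any 1 of L55H, L203H, L56H, L60H, L217H or L206H (log2 fold change 0.44 to 0.49, adjusted p = 0.0517 to 0.0777). Sult1c2, a SULT1C gene that was low in most livers, was lost without any 1 of L59H, L55H, L50H, L203H, L56H, L60H or L217H (log2 fold change 1.08 to 1.53, adjusted p = 0.0636 to 0.0886).

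Ugt2b34l1 was the UGT called in liver by stage (log2 fold change -0.60, SE 0.16, adjusted p = 0.0416 in hypergravity), a call lost without any 1 of L210H, L59H, L44S, L201S, L50H, L203H, L56H, L212H, L219S, L60H, L217H or L214S (log2 fold change -0.49 to -0.64, adjusted p = 0.05 to 0.124). Sult4a1, a SULT best known from brain, had 3.12, 3.28, 3.37, 3.49 and 3.54 in lactating livers, against 3.59, 4.65, 4.69, 5.07 and 6.36 in pregnant livers at standard gravity (log2 fold change -1.51, SE 0.33, adjusted p = 0.037). The groups did not overlap. The call was lost without any 1 of L216S, L52S, L42S, L55H, L44S, L201S, L219S, L60H, L214S, L48S or L202S (log2 fold change -1.14 to -1.57, adjusted p = 0.05 to 0.0938). L44S, L201S, L219S and L214S are not in the hypergravity comparison, and without any 1 of them the Ugt2b34l1 difference stayed at -0.60. L55H and L60H are not in the standard gravity comparison, and without either the Sult4a1 difference stayed at -1.51. Fitted on the groups compared alone, standard gravity livers gave 0 members called and hypergravity livers 3.

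Hypergravity left 0 members called in pregnant livers (limma, against 0.127% of all genes, 0.0492% higher and 0.0774% lower, with 6 members at an unadjusted p under 0.05) and 0 in lactating livers (against 0.485%, with 6 members). The smallest p in lactating livers was that of Gstz1 (0.36, adjusted p = 0.216), followed by Mgst3 (1.02, adjusted p = 0.224), and without L210H Mgst3 was called (1.36, adjusted p = 0.0318). In pregnant livers Gstm7 gave -0.65 (adjusted p = 0.422) and Gstm1 0.39 (adjusted p = 0.528). The stage difference did not pass the test of a difference between gravity levels for any member (0.197% of all genes, 0.113% higher and 0.0844% lower, 4 members at an unadjusted p under 0.05), Gstm7 giving 1.27 (adjusted p = 0.144) and Gstz1 0.62 (adjusted p = 0.169).

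The stage difference at standard gravity was then compared between liver and mammary gland. It was more positive in liver for 8 members and more negative for 1 (20.9%, against 26.7% of all genes, 16.8% higher and 9.88% lower). The median was 0.55, against 0.06 for all genes. Gsta4 had 11.35, 11.54, 11.62, 11.68 and 11.77 in lactating livers, against 11.60, 11.66, 11.70, 11.78 and 11.93 in pregnant livers, a span far narrower than that of mammary gland, and its stage difference stood 3.07 higher in liver (SE 0.37, adjusted p = 1.78e-08). Mgst1 followed at 1.28 (adjusted p = 2.95e-08), Sult1a1 at 1.57 (adjusted p = 0.00243), Gstm5 at 1.54 (adjusted p = 0.00584) and Gstm4 at 1.20 (adjusted p = 0.00168). Sult4a1 was more negative in liver, at -1.55 (adjusted p = 0.000288).

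Gstt3 (1.95, adjusted p = 0.0276), Sult1c2a (1.01, adjusted p = 0.0214) and Gstk1 (0.95, adjusted p = 0.0467) completed the list with calls that were lost when single rats were left out. Gstt3 was lost without any 1 of the rats of L214S, L44S, L52S or L57S (log2 fold change 1.77 to 1.87, adjusted p = 0.0586 to 0.0804), Sult1c2a without any 1 of the rats of L214S, L219S or L52S (log2 fold change 0.82 to 0.97, adjusted p = 0.0524 to 0.097), and Gstk1 without any 1 of the rats of L201S, L202S, L212H, L214S, L219S, L42S, L44S, L48S, L50H, L52S, L55H or L59H (log2 fold change 0.82 to 1.00, adjusted p = 0.0501 to 0.131). The rats of L212H, L50H, L55H and L59H are not in this standard gravity comparison, and without any 1 of them the Gstk1 difference stayed at 0.95. With M210H and A210H kept in the fit, Gstm5 (adjusted p = 0.104) and Gstk1 (adjusted p = 0.144) were not called. These arrays are not in this comparison either, and the differences stayed at 1.54 and 0.95.

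**Figure D4:**
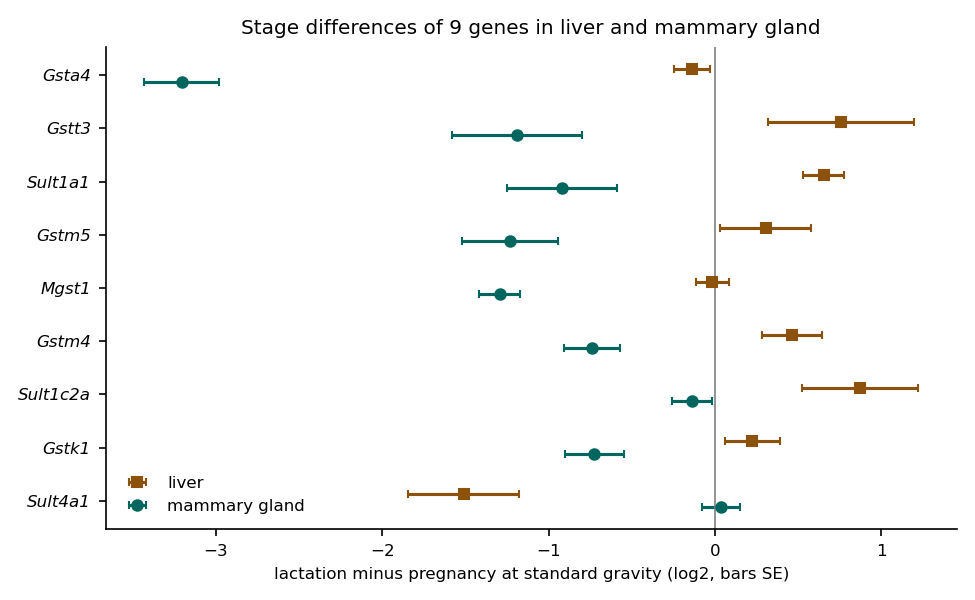
Log2 difference of lactation minus pregnancy at standard gravity (horizontal axis, with SE bars) of 9 phase II genes in liver (squares) and mammary gland (circles). Gsta4 lies at -3.21 in mammary gland and close to the zero line in liver, while Sult4a1 lies at -1.51 in liver.

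In adipose tissue no member was called by stage, by gravity or by their interaction (limma), also without A48S and A217H, which carry muscle markers. Of all genes 0.00703% were called by stage at standard gravity and 0% in each of the other 4 comparisons. Members at an unadjusted p under 0.05 numbered 1 for stage at standard gravity, 2 for stage in hypergravity, 3 for hypergravity in pregnancy, 0 for hypergravity in lactation and 1 for the interaction. Gsta1 gave -0.85 by stage at standard gravity (adjusted p = 0.673) and Gstp1 0.52 (adjusted p = 0.843). In hypergravity Sult1a1 gave -0.85 by stage and Gstm7 0.88 (adjusted p = 1 for both). For hypergravity the smallest p-values were those of Ugt2b35 (-0.27, adjusted p = 1) and Gstp1 (0.67, adjusted p = 1) in pregnancy and of Gstm7 (0.74, adjusted p = 1) and Sult1e1 (0.25, adjusted p = 1) in lactation. Sult1d1 was under 2.86 on all adipose arrays but A206H (5.14) and A44S (6.13).

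In pregnant mammary gland of the microgravity set, Mgst2 had 8.33, 8.37, 8.90 and 8.95 in microgravity, against 7.54, 7.56, 7.63 and 7.88 in flight controls and 7.40, 7.41, 7.60 and 7.64 in vivarium controls. Every microgravity array lay above every control array. The difference was 0.99 from flight controls (SE 0.16, adjusted p = 0.0226) and 1.12 from vivarium controls (SE 0.16, adjusted p = 0.0101). Sult1d1 had 5.28, 5.87, 6.19 and 6.40 in microgravity, against 4.09, 4.38, 4.74 and 5.02 in flight controls, without overlap (log2 fold change 1.38, SE 0.24, adjusted p = 0.0362). Members called were 2 against flight controls (4.65%, against 0.506% of all genes) and 1 against vivarium controls (2.33%, against 0.626%).

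Against flight controls these calls were near the threshold and were lost when single arrays were left out. Mgst2 lost its call there without any 1 of FLTC, FDSC, FDSB or FLTD (log2 fold change 0.88 to 0.96, adjusted p = 0.0515 to 0.0887), and Sult1d1 without any 1 of FLTC, VIVA, FLTB, FDSC, VIVD, FDSB, VIVC, FLTD, FDSA or VIVB (log2 fold change 1.22 to 1.44, adjusted p = 0.0511 to 0.113). The VIV arrays are not in the comparison with flight controls, and without any 1 of them the Sult1d1 difference stayed at 1.38. Against vivarium controls Mgst2 stayed called with any 1 array left out. VIVA and VIVC carry muscle markers (vivarium means of 4.03 to 8.39), and without both, Mgst2 was not called against flight controls (0.99, adjusted p = 0.0633) or vivarium controls (1.11, adjusted p = 0.131). Flight and vivarium controls gave 0 members called (limma, 0% of all genes, 2 members at an unadjusted p under 0.05), with Gstp3 at 0.39 (adjusted p = 0.519) and Gsta1 at -0.20 (adjusted p = 0.542). The 2 microgravity comparisons share the microgravity arrays. Ggt1 was higher in microgravity too (1.27, adjusted p = 0.00626 against flight and 1.36, adjusted p = 0.00285 against vivarium controls).

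**Figure D5:**
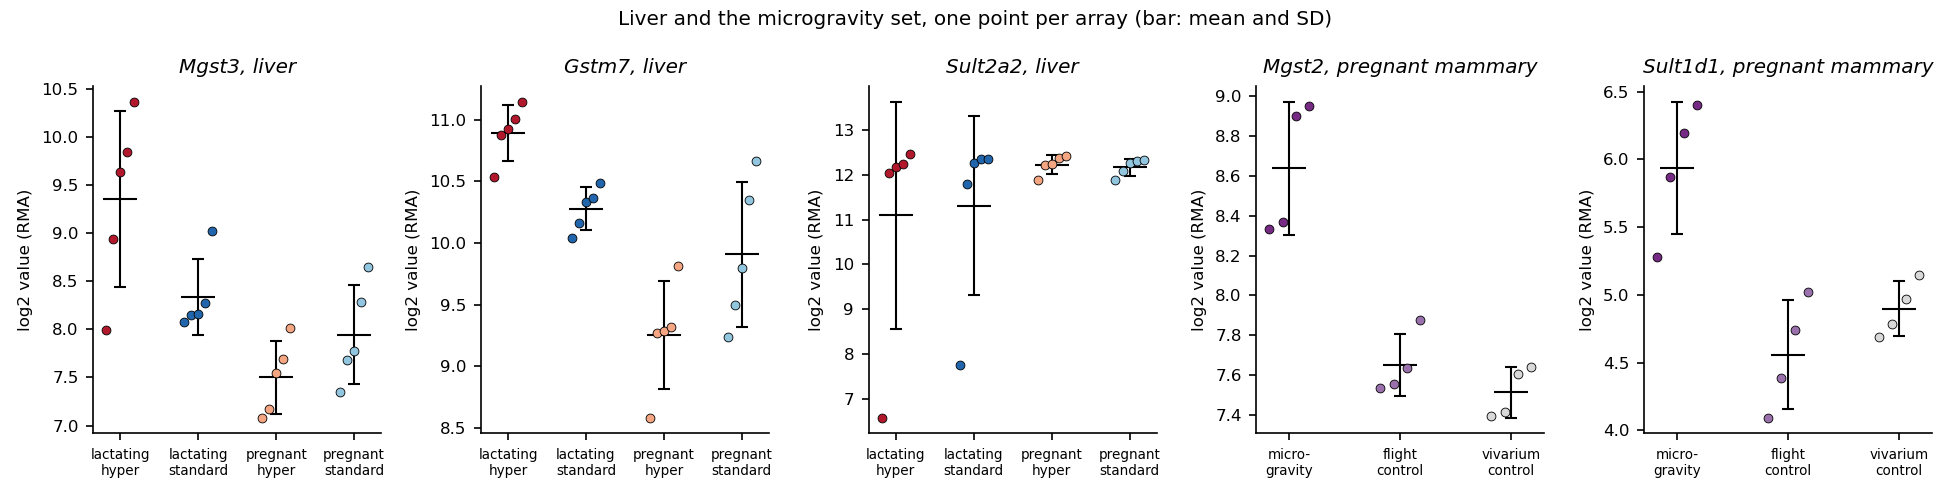
Log2 signal per array (points, vertical axes) with mean and SD bars of Mgst3, Gstm7 and Sult2a2 in the 4 liver groups, and of Mgst2 and Sult1d1 in the 3 groups of the microgravity set (horizontal axes). Sult2a2 is at 6.58 on L206H and 7.75 on L202S, far below the other livers. Every microgravity array of Mgst2 lies above every control array.

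Of the 43 members 25 were called in none of the 18 comparisons of stage or gravity within a tissue, 58.1% of them, against 45.6% of all 14217 genes. They include most UGT2 genes, Gstp3, Sult1b1, Sult2a2 and Sult2a6, which set liver apart from the other tissues, and the 6 genes that stayed under the array median. The members called by stage or gravity in mammary gland were all GSTs except Sult1a1 and, in the microgravity set, Sult1d1. The 13 members above the array median on all 19 mammary arrays were likewise GSTs, with Sult1a1. Every UGT2 gene and every other SULT was above it on at most 3 of these arrays. Gsta3 was under the median on every mammary array and was called by stage in hypergravity. Gsto1, Gstt1 and Gstt2 were above it on all 19 and were not called by stage or gravity. The part of signal level in which families were called was not tested.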

How the data were processed

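Per the labels' protocols, TRIzol served for RNA of mammary gland and liver and the RNeasy Lipid kit for adipose tissue, so the extraction differs between tissues. Biotin-labelled targets were made from 25 ng of total RNA (NuGEN Ovation). The deposited values are log2 signals of 31042 probe sets on 72 arrays, made with RMA per the submitters' processing notes, with no version given. Array medians were 4.32 to 4.56 on 60 arrays and 4.87 to 5.02 on the microgravity set, and no level was set across them. No 2 arrays held identical values (highest correlation 0.99256).

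Probe sets were named from the platform annotation (20826 with 1 symbol, 436 with several, 9780 with none). Of the 43 members 42 matched RefSeq (all but Sult1e1) and 36 had an upstream sequence. Tests used limma 3.58.1 and R 4.3.3 (group means model, lmFit, eBayes, two-sided), with 1 fit per tissue, 1 over 58 arrays for tissues and 1 for the 12 microgravity arrays. Limma p-values were adjusted by Benjamini and Hochberg over 31042 probe sets, with a threshold of 0.05. Genes named are, per family, direction and comparison, up to 3 called members by size, for tissues up to 5 per direction, and the 2 smallest p-values where none was called. Pathway genes named are up to 3 called per list. The code was tested on simulated data.

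The same rat gave all 3 tissues, and deviations of a rat's arrays from their group means correlated at -0.047 to 0.33 over 57 pairs. The members and lists were chosen with earlier results of these data known. The number of arrays limits the precision.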

Additional observations from a re-analysis of the deposited data

Results flagged for a closer look

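Single arrays that stood far from the rest of their group were sought with Dixon's test in 645 sets of a gene and a group. In 348 sets at least 1 array was above its own median, and the 30 flagged among these are listed here. Another 19 were flagged in sets with no such array. Chance alone gives about 1 in 20 groups when sets are not selected. Some of the 348 sets, such as Ugt2b in pregnant hypergravity mammary gland, entered only through the array that stood apart. That rate does not hold for such sets. On M56H, a pregnant hypergravity mammary array with a hepatocyte marker mean of 9.75, 9 genes stood apart, all highest there, namely Gstm1 at 6.90, Gstp3 at 9.03, Ugt2b at 8.78, Ugt2b1 at 6.91, Ugt2b15 at 8.13, Ugt2b35 at 8.57, Sult1b1 at 6.79, Sult2a2 at 6.01 and Sult2a6 at 10.74. In the next highest array of that group these genes were between 2.70 and 4.39. The part of liver RNA in these values was not tested. In the other mammary arrays Gstm1 on M52S at 5.75, Gstt2 on M60H at 9.85 and Mgst2 on M44S at 6.98 stood apart, and in the microgravity set Gstm4 on VIVB at 5.06 and Gstm5 on FDSA at 6.31.

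In liver the arrays far from their group were Gsta1 on L214S at 11.38, Gsto1 on L56H at 10.08, Gstp1 on L60H at 9.27, Mgst3 on L219S at 9.03, Ugt2b15 on L214S at 10.25, Ugt2b15 on L55H at 10.25, Ugt2b35 on L214S at 11.29, Sult1a1 on L57S at 11.29, Sult2a2 on L202S at 7.75 and Sult2a2 on L206H at 6.58. The widest of these gaps were those of Sult2a2, 5.46 below the next array for L206H and 4.05 for L202S. In adipose tissue they were Gsta1 on A216S at 8.89, Gstp1 on A219S at 8.31, Mgst2 on A56H at 8.50, Sult1a1 on A56H at 9.76, Sult1d1 on A206H at 5.14 and Sult1d1 on A44S at 6.13.

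The stage difference of mammary gland differed between hypergravity and standard gravity, by the test of that difference, for Gstm4 (0.96), Gstp1 (1.74), Mgst1 (0.80) and Mgst2 (2.05). The stage difference at standard gravity differed between liver and mammary gland for Gsta4 (3.07), Gstm4 (1.20), Gstm5 (1.54), Gstk1 (0.95), Gstt3 (1.95), Mgst1 (1.28), Sult1a1 (1.57), Sult1c2a (1.01) and Sult4a1 (-1.55).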

How the results depend on the processing

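With 1 array or rat left out, 1288 of 1429 values over 74 results kept their direction and their side of the threshold, 141 kept the direction and missed the threshold, and 0 reversed. Under the other settings 498 of 551 did so, 53 missed the threshold and 0 reversed. Except where a smaller sample or set of genes is part of the setting, the cause was not tested. Keeping M210H and A210H in their labelled groups gave 5 members called by stage in standard gravity mammary gland, as did leaving out the arrays with muscle or hepatocyte markers and leaving out M56H, M52S and M57S alone. These exclusions left 1 and 2 members for the interaction. Fits on only the groups compared gave 0 and 3 members by stage in liver at standard gravity and in hypergravity, and 0 for microgravity against flight controls. Without VIVA and VIVC, microgravity gave 0 members against flight and 0 against vivarium controls. With the array letter as a replicate block it gave 1 and 2, and with array weights also 1 and 2. Correlations of deviations between same-letter arrays ran from -0.153 to 0.083 over 12 pairs. So few pairs cannot show whether the letter marks a block, and the reported fit leaves it out. The rat as a replicate block ended no call between tissues among the genes named and gave 20 members called between mammary gland and adipose tissue, against 18, and 11 for stage between liver and mammary gland, against 9 (for Sult1e1, liver minus mammary, mean of 4 groups, -0.15, adjusted p = 0.0358). Without dim probe sets, 25 members differed between liver and mammary gland. Dim members were left out of that fit and not tested, so the 25 are not out of 43. Leaving out 1 array gave 5 to 9 members by stage in standard gravity mammary gland, 7 to 11 in hypergravity, 4 to 7 for hypergravity in lactation, 2 to 4 for the interaction, 1 to 3 and 3 to 8 by stage in liver at standard gravity and in hypergravity, 0 to 1 for hypergravity in lactating liver, 0 to 2 for microgravity against flight and 1 to 2 against vivarium controls (2 without FLTA), and 6 to 12 for stage between liver and mammary gland. Low signal limits members under the array median, whose differences may be understated.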

Other observations

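Genes for the donors of the other conjugation reactions were also compared by stage in mammary gland. Of all genes 14.4% were higher and 25.7% lower in lactation at standard gravity, and 13.5% and 21.2% in hypergravity. Whether the lists below differ from these shares was not tested. Of 5 genes of UDP-glucuronate and glucuronide turnover, 4 were higher and 0 lower in lactating than in pregnant rats at standard gravity (median 0.70), among them Slc35b1, a nucleotide carrier (1.79, adjusted p = 0.000403), Ugp2, which makes UDP-glucose (0.83, adjusted p = 0.013), and Ugdh, which oxidises it to UDP-glucuronate (0.70, adjusted p = 0.00473). In hypergravity 2 were higher and 0 lower. Of 8 genes of PAPS and sulfate turnover, 1 was higher and 2 lower at standard gravity (median 0.03), with Papss2, a PAPS synthase, lower (-2.12, adjusted p = 1.15e-07, and -2.44, adjusted p = 1.15e-07 in hypergravity), as was Sts, the steroid sulfatase (-1.86, adjusted p = 1.62e-05, and -1.43, adjusted p = 0.000492 in hypergravity).

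Of 7 genes of conjugate export, 0 were higher and 0 lower by stage in standard gravity mammary gland, and in hypergravity 1 was higher and 2 lower. The shares of all genes are those given above for the donor genes. Abcg2, which pumps drugs and sulfate conjugates into milk, was lower in lactating hypergravity than in lactating standard gravity mammary gland (-1.88, adjusted p = 0.000202), and its stage difference differed between gravity levels (-1.85, adjusted p = 0.00849). In liver it was lower in lactation in hypergravity (-1.54, adjusted p = 0.00332). Of 13 regulators 1 was higher and 1 lower in lactating hypergravity livers, Nr1i3, the xenobiotic sensor CAR, being higher (1.22, adjusted p = 0.0203) and Hnf4a lower (-0.65, adjusted p = 0.0436). In that comparison by stage 1.83% of all genes were higher and 2.55% lower.

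On the arrays that go against their labels, Gstm5 was 7.89 on M210H and 3.57 on A210H, Sult1a1 9.61 and 7.28, and Gstz1 8.84 and 6.13. Mgst2 was 9.20 on M210H and 10.23 on A210H. On M56H, which had the highest hepatocyte marker mean of the mammary arrays, Sult2a2 was 6.01, below its 6.92 on M52S, while the liver of the same rat had 12.22. Sult1c3, a SULT1C gene called in no comparison of stage or gravity, ranged from 3.01 to 9.38 over the 20 livers.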
